A study of Zeugodacus cucurbitae with 6 samples.

Results

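The genes described here are 6 regulators of body pattern in the melon fly Zeugodacus cucurbitae, namely Optix, Awh, Scr, Ubx_2, Dll_0 and LOC105214581, out of 12834 genes in the deposited table. They were named by identifier and were selected on the contrast of irradiated with non-irradiated larvae. Their fold changes between these groups are therefore a description, and calls of these genes at a threshold are given as counts that test nothing. Whole 3rd instar larvae were sequenced after their eggs, 25 h old, had received 50 Gy of cobalt gamma radiation at 1.0 Gy per minute (irradiated, 3 libraries), or 0 Gy (non-irradiated, 3 libraries). Larvae of both groups were reared on the same artificial diet, and each library was made from a pool of 20 larvae. Neither a strain nor the sex of the larvae is named in the labels. All 6 genes passed the filter on low counts, as did 9768 genes in all.

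In the fruit fly, adult eyes, antennae, legs and wings arise from imaginal discs, small sacs of undifferentiated cells that are set aside in the embryo and grow inside the larva. Which organ a disc makes, and which segment it belongs to, is fixed by transcription factors with a homeodomain, the fold that binds DNA, and by signals such as Wnt that pass between cells. Hox genes such as Scr and Ubx give segments their identity along the body, while Optix, Awh and Dll act within particular organs. In these pools of whole larvae, fewer cells of a type and less RNA per cell cannot be told apart.

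Optix is the fruit fly's Six-family homeodomain factor of the eye and head, and Dll (Distal-less) is the selector of the outer part of legs and antennae. Awh (Arrowhead) is a LIM-homeodomain factor required for imaginal cells such as the abdominal histoblasts. Scr (Sex combs reduced) specifies labial and first thoracic identity, and Ubx (Ultrabithorax) specifies the segment that bears the halteres. The melon fly symbols come from the deposited table, and the numbered endings of Ubx_2 and Dll_0 are part of those symbols. LOC105214581 corresponds to naked cuticle, a Wnt antagonist in the fruit fly, when the gene names that the study plotted for its qRT-PCR check are read in the order of its primer list. The primers listed for it are shown because the name rests on the list they stand in, 5′ to 3′ and in lower case throughout since no part is marked.
LOC105214581 first primer: accgacactaattgcgaacc
LOC105214581 second primer: gctgctgttgttgttcgtgt
Each primer has 20 bases, of which 10 are G or C.

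Library totals were 17191722 to 18311658 counts in the irradiated group and 13192748 to 16344295 in the non-irradiated group, so that 1 count equals 0.0546 to 0.0582 CPM (counts scaled to the total of the library) in the irradiated and 0.0612 to 0.0758 CPM in the non-irradiated libraries. Irradiated replicates 1 and 2 were much more alike than any other pair, with a mean squared standardized difference of 2.87 per gene, where counting noise alone gives about 1, against 90.1 to 300.3 in the other 14 pairs. They are used as labelled, and the fold change of each of the 6 genes is also given with this pair summed. By the study's methods each replicate had its own Petri dishes of eggs. Nothing says that the eggs came from separate parents, so the errors measure the spread between these pools only. Whether irradiated replicates 1 and 2 are separate pools of larvae is not known. If they are not, the irradiated SDs given with n = 3 and the standard errors of the fold changes are too small. Levels are given as raw counts, as normalized CPM (scaled by TMM factors) or as FPKM, which is further divided by gene length and is the unit used to set genes beside each other.

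In irradiated larvae 5 of the 6 genes had a mean level at or below 48.9% of that in non-irradiated larvae, while Ubx_2 was close to level. Dll_0 stood at 5.63% of its non-irradiated mean CPM, Optix at 19.7%, Scr at 32.3%, LOC105214581 at 39.0%, Awh at 48.9% and Ubx_2 at 92.5%. All 3 irradiated libraries lay below all 3 non-irradiated libraries for 4 of the 6 (Optix, Scr, Dll_0 and LOC105214581), a state found in 13.4% of all tested genes. At an adjusted p under 0.05 in edgeR's quasi-likelihood test, 3 of the 6 were lower and 0 higher, against 1.6% and 2.14% of all tested genes. The 3 were Optix, Scr and Dll_0, and this count depended on the near-identical pair. It was 0 with irradiated replicates 1 and 2 summed and 0 without irradiated replicate 1, 1 (Dll_0) without irradiated replicate 2, and 2 (Dll_0 and Optix) without irradiated replicate 3 or without non-irradiated replicate 3. DESeq2 called 4, LOC105214581 being the other. The study's own threshold asked for an FPKM over 1 in some library, a log2 change of 0.58 or more in size and a p under 0.05 before adjustment. It was passed by 4 lower and 0 higher genes of the 6, against 5.58% and 6% of all tested genes, with 3 or 4 lower in every alternative. Nothing is read from these shares, or from which of the 6 were called in a given setting, since the same contrast chose the genes.

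**Figure D1:**
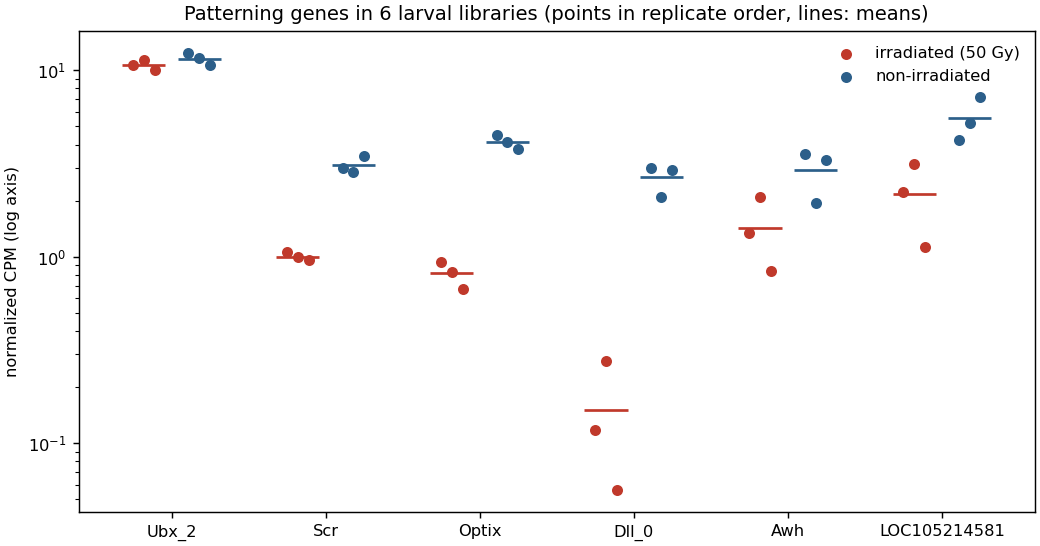
Normalized CPM of the 6 genes (log axis) in each irradiated library (red, 50 Gy) and each non-irradiated library (blue). Points are single libraries in replicate order and lines are group means. The groups stand apart for Scr, Optix, Dll_0 and LOC105214581, overlap for Awh, and are nearly level for Ubx_2.

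Dll_0 was close to the detection limit in the irradiated larvae. It had 2, 5 and 1 counts in irradiated replicates 1, 2 and 3, against 43, 28 and 47 counts in non-irradiated replicates 1, 2 and 3. In normalized CPM this was 0.150 ± 0.114 in irradiated and 2.67 ± 0.495 in non-irradiated larvae (SD, n = 3 each). The highest irradiated library, at 0.276 normalized CPM, was far below the lowest non-irradiated library, at 2.1. The log2 fold change was -4.08 (standard error 0.49), which ranked 17 from the lowest among 9768 tested genes. With 8 counts over the irradiated group against 118 over the non-irradiated group, the ratio of summed normalized counts was 0.0562, with a 95% exact binomial interval of 0.0237 to 0.114 that covers counting error only. The fold change was -4.15 with the near-identical pair summed, and ranged between -4.83 and -3.69 with libraries left out in turn.

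Optix had 16, 15 and 12 counts in the irradiated libraries, against 65, 55 and 61 in the non-irradiated libraries. The groups did not overlap, and within each group the libraries were close together. Its level was 0.815 ± 0.133 normalized CPM in irradiated and 4.14 ± 0.367 in non-irradiated larvae (SD, n = 3 each). The log2 fold change was -2.34 (standard error 0.25), and it stayed between -2.44 and -2.21 with each library left out and at -2.38 with the pair summed. 1.11% of the tested genes had a lower fold change than Optix.

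The pair of Hox genes did not move alike. Scr had 18, 18 and 17 counts in the irradiated libraries, against 43, 38 and 56 in the non-irradiated libraries. Its level was 1.00 ± 0.0505 normalized CPM in irradiated and 3.10 ± 0.329 in non-irradiated larvae (SD, n = 3 each), and the log2 fold change was -1.62 (standard error 0.24). With libraries left out in turn, Scr lay between -1.68 and -1.53 on this scale, and it stood at -1.64 with the pair summed. Its highest FPKM was 0.574, under the minimum of 1 in the study's threshold.

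Ubx_2 had 182, 205 and 178 counts in irradiated larvae, against 178, 155 and 172 in non-irradiated larvae, with overlapping groups. In normalized CPM this was 10.7 ± 0.659 in irradiated and 11.6 ± 0.853 in non-irradiated larvae (SD, n = 3 each). The log2 fold change of -0.11 was within its standard error of 0.13, and the 95% counting interval of the ratio of summed normalized counts was 0.821 to 1.05. The log2 fold change was -0.13 with the near-identical pair summed and -0.16 to -0.06 with libraries left out in turn.

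Since both Hox genes were counted in the same libraries, their ratio needs no scaling between libraries. Scr counts were 9.89%, 8.78% and 9.55% of the Ubx_2 counts in irradiated replicates 1, 2 and 3, against 24.2%, 24.5% and 32.6% in non-irradiated replicates 1, 2 and 3. Dll_0 counts were 1.10%, 2.44% and 0.562% of those of Ubx_2 in the irradiated libraries, against 24.2%, 18.1% and 27.3% in the non-irradiated libraries. Optix counts were 8.79%, 7.32% and 6.74% of those of Ubx_2 in irradiated and 36.5%, 35.5% and 35.5% in non-irradiated libraries. Awh counts were 12.6%, 18.5% and 8.43% of those of Ubx_2 in irradiated and 28.7%, 16.8% and 30.8% in non-irradiated libraries. For LOC105214581 the values were 20.9%, 27.8% and 11.2% in irradiated and 34.3%, 45.2% and 67.4% in non-irradiated libraries. Every irradiated ratio was below every non-irradiated ratio for Scr, Dll_0, Optix and LOC105214581, but not for Awh. The share of all tested genes with separate ratios was not computed, and the same contrast chose the genes.

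Awh and LOC105214581 were lower in the irradiated group on average but were uneven among replicates. Awh had 23, 38 and 15 counts in the irradiated libraries, against 51, 26 and 53 in the non-irradiated libraries. Irradiated replicate 2, at 2.1 normalized CPM, lay above non-irradiated replicate 2, at 1.95, so that the groups overlapped. Its means were 1.43 ± 0.632 normalized CPM in irradiated and 2.93 ± 0.857 in non-irradiated larvae (SD, n = 3 each). The log2 fold change was -1.03, with a standard error of 0.40. The fold change was -0.76 without irradiated replicate 3, -1.41 without irradiated replicate 2 and -1.14 with the pair summed.

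LOC105214581 had 38, 57 and 20 counts in the irradiated libraries, against 61, 70 and 116 in the non-irradiated libraries. The groups were separate in normalized CPM, with 3.15 in the highest irradiated library and 4.24 in the lowest non-irradiated library. Means were 2.17 ± 1.01 in irradiated and 5.56 ± 1.50 in non-irradiated larvae (SD, n = 3 each). On the log2 scale the difference was -1.36, with a standard error of 0.39. It lay between -1.72 without irradiated replicate 2 and -1.04 without irradiated replicate 3, and was -1.50 with the pair summed.

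The spread inside each group was examined by setting the libraries of a group against each other. This does not use the difference between the groups, but a choice made on that difference can favour genes with a small spread. Of 36 within-group ratios of normalized counts (6 for each gene), 7 had a 95% exact binomial interval that did not contain 1. Over all tested genes with a count in the pair, 43.1% of such ratios did so, and genes with more counts have narrower intervals, so nothing particular to the 6 genes is read from this count. The 7 were 3 of 6 ratios of Awh and 4 of 6 of LOC105214581. LOC105214581 was 2.80-fold higher in irradiated replicate 2 than in irradiated replicate 3 (interval 1.66 to 4.92), and Awh was 2.49-fold higher in the same pair (1.34 to 4.87). Among non-irradiated pools, Awh was 1.82-fold higher in replicate 1 than in replicate 2 (1.11 to 3.04). Between the near-identical irradiated replicates 1 and 2, all 6 intervals contained 1, where 15.6% of all tested genes had one that did not. For Dll_0 the few irradiated counts leave wide intervals, so a spread between its irradiated pools was not detectable at this depth.

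Relative to other genes, all 6 were weakly expressed in FPKM. In non-irradiated larvae the mean FPKM exceeded that of 20.6% of tested genes for Ubx_2 and of 5.16% for Scr, with the rest between them. In normalized CPM, which is not divided by gene length, Ubx_2 exceeded 41.5% of tested genes and Dll_0 14.5%, with the rest between them. The order from high to low in irradiated larvae was Ubx_2 (1.84 ± 0.0986 FPKM), Awh (0.861 ± 0.375), LOC105214581 (0.366 ± 0.169), Optix (0.188 ± 0.0295), Scr (0.167 ± 0.00753) and Dll_0 (0.0602 ± 0.0453), each as mean and SD of 3 libraries. Of the neighbours in this order, Awh and LOC105214581, LOC105214581 and Optix, and Optix and Scr overlapped between libraries, whereas Ubx_2 stood above and Dll_0 below all the others. In non-irradiated larvae the order was Ubx_2 (2.02 ± 0.277), Awh (1.81 ± 0.628), Dll_0 (1.10 ± 0.265), Optix (0.973 ± 0.151), LOC105214581 (0.946 ± 0.228) and Scr (0.524 ± 0.0645). There every pair of neighbours from Ubx_2 down to LOC105214581 overlapped, while Scr lay below all of them. Dll_0 thus stood in the middle of the set in non-irradiated larvae and at the bottom in irradiated larvae. The summed FPKM of the 6 genes was 3.46, 4.19 and 2.79 in irradiated replicates 1, 2 and 3, against 8.48, 6.02 and 7.60 in non-irradiated replicates 1, 2 and 3.

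**Figure D2:**
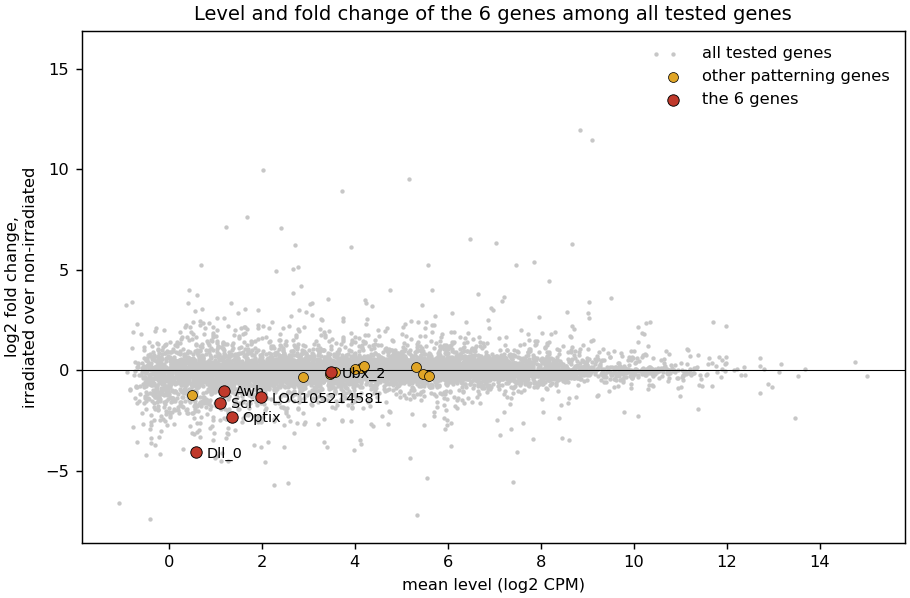
Log2 fold change of irradiated over non-irradiated larvae (vertical axis) against mean level in log2 CPM (horizontal axis) for all 9768 tested genes (grey), with the 6 genes in red and 10 other patterning genes in yellow. Dll_0 at -4.08 and Optix at -2.34 lie at the lower edge of the cloud, and Ubx_2 at -0.11 lies in its middle.

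To ask whether other patterning genes moved, 9 lists were used that hold 168 genes of the fruit fly for Hox genes, eye and head, limb, LIM-homeodomain, wing, segment polarity, gap and pair-rule functions, signalling, and the Polycomb and trithorax groups that keep Hox genes off or on. Only 1033 of the 12834 genes carry a symbol and the other 11801 a number, so the lists met 10 genes besides those described above. Of these 10 genes, 0 were higher and 0 lower at an adjusted p under 0.05 in edgeR's quasi-likelihood test and likewise in DESeq2, and 0 passed the study's threshold in either direction. Over all tested genes edgeR gave 2.14% higher and 1.6% lower, and the study's threshold 6% and 5.58%. A count of 0 among 10 genes is near these shares, so nothing is read from it. At an unadjusted p under 0.05, 2 were lower and 0 higher, against 10.3% and 10.7% of all tested genes. All irradiated libraries lay below all non-irradiated libraries for 2 (Wnt2_0 and Caf1_0) and above for 2 (Mad_0 and Sfmbt_0). Over all tested genes these shares were 13.4% and 15%. Their median log2 fold change was -0.13, with 6 of 10 below 0, beside a median of -0.01 over all tested genes.

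Wnt2_0, a member of the Wnt family of secreted signals, had 10, 23 and 8 counts in irradiated larvae, against 24, 30 and 26 in non-irradiated larvae. The groups did not overlap in normalized CPM, and the log2 fold change of Wnt2_0 was -1.24 (standard error 0.44). However, its adjusted p in edgeR's test was 0.170, and between 0.112 and 0.411 over the alternatives. Its unadjusted p in edgeR's test was 0.0255. It missed the study's threshold by its highest FPKM only, which was 0.986 where more than 1 was asked. Axn_0, whose fruit fly counterpart Axin is part of the complex that degrades the Wnt effector Armadillo, had 17.9 ± 0.958 normalized CPM in irradiated and 16.9 ± 0.156 in non-irradiated larvae (SD, n = 3 each). The log2 fold change of Axn_0 was 0.09 (standard error 0.10).

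Of the Polycomb group, 6 genes were measured, and their summed level was 105.5 to 109 normalized CPM in the irradiated and 112 to 123.5 in the non-irradiated libraries. Caf1_0 was the largest part of this sum and the only one of these genes with all irradiated libraries below all non-irradiated libraries. Sfmbt_0 was separate in the other direction and the rest overlapped, so the sum does not show a shift of the group. Caf1_0, named like a histone chaperone that serves the Polycomb complex PRC2 and other complexes, was at 42.9 ± 2.44 normalized CPM in irradiated and 53.1 ± 3.71 in non-irradiated larvae (SD, n = 3 each). This was a log2 fold change of -0.31 (standard error 0.11) with an adjusted p of 0.174 in edgeR's test, and 0.146 to 0.462 over the alternatives. Su(z)12_2 and Pcl, named after further PRC2 subunits, had values of -0.34 and -0.19 on the same scale, Sce_1 and Scm_0 had -0.07 and 0.06, and Sfmbt_0 had 0.20. Mad_0, the transducer of Dpp signals, stood at 0.17 and Egfr_1, the epidermal growth factor receptor, at -0.21. Sce_1, Scm_0 and Egfr_1 each changed sign in 1 of 16 alternatives.

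**Figure D3:**
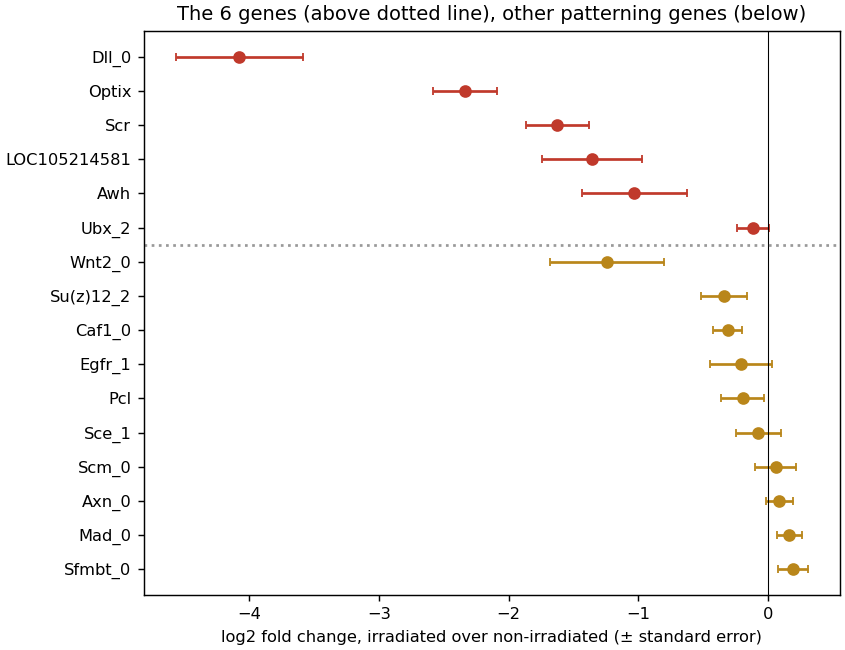
Log2 fold change of irradiated over non-irradiated larvae with its standard error (bars) for the 6 genes (red, above the dotted line) and the 10 other patterning genes (ochre, below it). Wnt2_0 at -1.24 is the lowest of the other genes, and the remaining 9 lie between -0.34 and 0.20.

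A further 22 genes named by the symbol of a developmental transcription factor or signalling protein were picked from the symbols after the table had been opened, so they are described without a test. Of the 21 that passed the filter, 9 had a log2 fold change below 0, and the median was 0.05. All irradiated libraries lay below all non-irradiated libraries for 1 of them and above for 3, beside 13.4% and 15% of all tested genes. The lower one was Kr-h1_4, named like a factor that holds off metamorphosis under juvenile hormone, at 2.53 ± 0.248 normalized CPM in irradiated and 4.32 ± 0.866 in non-irradiated larvae (SD, n = 3 each). Kr-h1_3, a more abundant entry of the same symbol, stood at 61.4 ± 5.81 in irradiated and 62.5 ± 8.09 in non-irradiated larvae. Its groups overlapped, with a log2 fold change of -0.02. The higher ones were Cas_0, Jra and Spen_4, with log2 fold changes of 0.19, 0.29 and 0.37. The gene with the lowest log2 fold change of the 21 was Ror_1, named like a receptor tyrosine kinase, at -2.14 (standard error 0.72). Ror_1 had 12, 7 and 7 counts in irradiated larvae, against 61, 8 and 28 in non-irradiated larvae, and its groups overlapped through non-irradiated replicate 2. Ror_1 and Kr-h1_4 passed the study's threshold as lower and none of the 21 as higher, beside 5.58% and 6% of all tested genes. Since their values were seen before they were listed, this is a description. Ror_1 is also one of the genes that the study chose for knockdown from those it found lower.

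Markers of tissues that whole larvae contain were few among the symbols. Of 11 body wall muscle entries 4 were found, at a summed 6313 to 8979 normalized CPM in irradiated and 7507 to 10310 in non-irradiated libraries. At an adjusted p under 0.05 in edgeR's test 0 of the 4 were called in either direction, and likewise by the study's threshold. Over all tested genes 1.6% were lower and 2.14% higher by the first rule, and 5.58% and 6% by the second. A count of 0 among 4 genes is near these shares, so nothing is read from it. Of 9 neuron entries only Syt1_0 was found, with 30, 19 and 4 counts in irradiated and 19, 8 and 29 in non-irradiated larvae, and of 13 entries for dividing cells only Mcm3_1, a subunit of the replicative helicase. Mcm3_1 stood at 13.9 ± 1.55 normalized CPM in irradiated and 17.0 ± 0.301 in non-irradiated larvae (SD, n = 3 each), with no overlap of the groups. Its log2 fold change was -0.29 with an adjusted p of 0.239 in edgeR's test (0.216 to 0.533 over the alternatives), and the part of cell division in the levels of the 6 genes was not tested. None of 24 ecdysone response and stage entries and none of the fat body, blood cell or tracheal entries was found by symbol. Of 9 imaginal disc markers (vg, nub, ap, ey, eya, so, dac, hth and tsh) 0 were found, so the disc origin of the 6 genes' RNA was not checked against them.

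The ecdysone-inducible gene ImpE2, which the study identifies as LOC105216289, had 6, 3 and 0 counts in irradiated and 97, 10 and 326 counts in non-irradiated larvae. Irradiated replicate 3 was the lowest irradiated pool for ImpE2 and, in normalized CPM, for all 6 genes. Non-irradiated replicate 2 was the lowest non-irradiated pool for ImpE2 and also for Awh, Scr and Dll_0, whereas Optix and Ubx_2 were lowest in non-irradiated replicate 3 and LOC105214581 in replicate 1. The part of larval age in the lower levels of the 6 genes was not tested.

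Over the 6 libraries, the genes with a symbol whose log2 CPM followed each of the 6 most closely were found by Pearson correlation among 926 genes. Dll_0 was followed by Sema-2a_1, named like a semaphorin that guides axons (r = 0.988), and by Inos_0 (r = 0.984). Sema-2a_1 had 5, 9 and 2 counts in irradiated larvae and 66, 25 and 61 in non-irradiated larvae, with the lowest pool of each group the same as for Dll_0. Igfals_6 was among the closest both for Scr (r = 0.987, followed by Usp54_0 at 0.977) and for Optix (r = 0.98, beside Fanci_0 at 0.98). Awh was nearest to Dgat1_0 (r = 0.978) and Nmdar1 (r = 0.964), Ubx_2 to Prps1_1 (r = 0.966) and Ttpa_0 (r = 0.960), and LOC105214581 to Slc25a3_3 (r = 0.978) and Cyp4ac1_1 (r = 0.948). These values describe 6 libraries that share the contrast of the groups and hold a near-identical pair, and between 1.01% (Ubx_2) and 3.91% (Optix) of all tested genes reached an r of 0.9 with a given gene.

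The place of the 6 genes among their neighbours was taken from the gene order of assembly idZeuCucr1.2, which held 11831 of the identifiers. Ubx_2 and Scr lie on chromosome 2, Awh and LOC105214581 on chromosome 4, and Optix and Dll_0 on chromosome 6. Only 3 genes of the deposited table lie between Ubx_2 and Scr. One of them, LOC105217111, had 25, 22 and 23 counts in irradiated larvae against 37, 38 and 26 in non-irradiated larvae (log2 fold change -0.81, adjusted p = 0.194 in edgeR's test). The next, LOC105219617, had 348, 356 and 405 counts against 229, 157 and 205 (0.64, adjusted p = 0.0635), and the last had 0 counts in every irradiated library and 4, 1 and 0 in the non-irradiated libraries. The genes between both Hox genes thus showed values on either side of 0.

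Taking the 10 nearest tested genes on each side of each of the 6, without the 6 themselves, gave 102 different genes. Their median log2 fold change was 0.02, with 48 of 102 below 0. At an adjusted p under 0.05 in edgeR's test 3 were lower and 0 higher, and by the study's threshold 7 were lower and 6 higher, beside the background shares of 1.6% and 2.14%, and of 5.58% and 6%. One of the 3 lower ones was Sema-2a_1, at position 9 from Dll_0 with a log2 fold change of -3.47. The other 2 carry a number in place of a symbol. Over all tested genes, lower calls at an adjusted p under 0.05 fell from 156 to 5 with irradiated replicates 1 and 2 summed. The 3 neighbour calls come from the fit that kept these replicates apart, so nothing is read from them. Around LOC105214581, 3 of 20 neighbours were below 0 and the median was 0.26, whereas the gene itself stood at -1.36. Around Scr the median was -0.06 over 19 neighbours, Ubx_2 being left out, and around Optix -0.04 over 20.

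**Figure D4:**
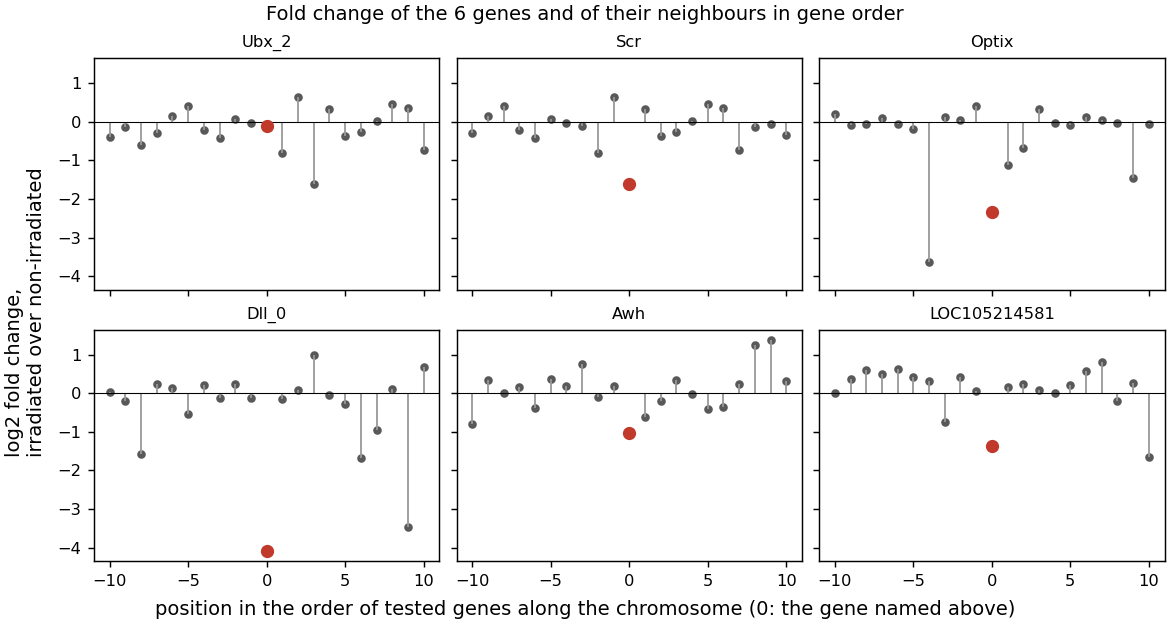
Log2 fold change of irradiated over non-irradiated larvae for each of the 6 genes (red, position 0) and for the 10 nearest tested genes on either side in chromosomal order (grey). Most neighbours lie near 0. The lowest are a neighbour of Optix at -3.62, which was not called at an adjusted p under 0.05, and Sema-2a_1 at position 9 from Dll_0 at -3.47, and Scr (-1.62) appears in grey among the neighbours of Ubx_2.

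By the gene models of the same assembly, Optix and LOC105214581 have 1 transcript each, Awh and Scr 2 each, and Ubx_2 and Dll_0 4 each, of which 1 of Ubx_2 is non-coding. The counts are sums per gene, so a shift between the transcripts of Ubx_2 or Dll_0 cannot be seen in them. The gene length implied by the deposited counts and FPKM was 1650 bases for Awh, 2470 for Dll_0, 4301 for Optix, 5779 for Ubx_2, 5875 for LOC105214581 and 5966 for Scr. Ubx_2, Scr and LOC105214581 were thus of similar length and had log2 fold changes of -0.11, -1.62 and -1.36.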

How the data were processed

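RNA-seq was made from pooled larvae as 3 irradiated and 3 non-irradiated libraries, with poly-A selection and paired-end reads of 150 bp. The authors removed low-quality reads, aligned the rest with HISAT2 and counted them per gene with HTSeq (0.6.1p2 per the labels, another version in the study's methods), and deposited raw counts. The deposited FPKM values are the authors' scaling of the counts by library and gene length, and the gene lengths printed were computed back from them. The strand setting is not given in the sources used here, so how reads of overlapping genes were counted is not known.

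Counts were compared with edgeR 4.0.16 (R 4.3.3) using TMM, filterByExpr, a robust prior, glmQLFit and glmQLFTest, with Benjamini-Hochberg adjustment over 9768 genes. The standard error is the log2 fold change divided by the square root of F. Alternatives were RLE, total counts, no filter, a minimum of 10 counts per library, DESeq2 1.42.0, limma 3.58.1 on log2(FPKM + 1) and log2(FPKM + 0.1), a replicate block, no robust prior, irradiated replicates 1 and 2 summed, and each library left out. The script was tested on simulated counts. Intervals are exact binomial at 95% and cover counting error only.

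The 6 genes and the lists were chosen with earlier results of these data known. Named besides them, by rule, were other copies of their symbols (there were none), listed genes past an adjusted p of 0.05, per list up to 2 of the most changed with an unadjusted p under 0.05 and no overlap, and the 2 genes with a symbol most correlated with each. Other listed genes, Kr-h1_3, Kr-h1_4, Cas_0, Jra, Spen_4, Ror_1, ImpE2 and the neighbours were named after their values were seen. List entries were matched to symbols without case or number ending. Gl was left out, since it can stand for glass or Glued. The authors used another assembly than the gene table, so no coordinates are given. Protein and promoter sequences were not analysed here.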

Additional observations from a re-analysis of the deposited data

How the results depend on the processing

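The log2 fold changes of all 6 genes stayed below 0 in every alternative that was run, but their size depended on the scale. Each alternative used the same libraries and the contrast that chose the genes, so nothing is read from the constant sign. With limma on log2(FPKM + 1), Dll_0 stood at -0.98, Optix at -0.73, Awh at -0.59, LOC105214581 at -0.51, Scr at -0.38 and Ubx_2 at -0.09. By construction a pseudocount shrinks the difference of genes with a low FPKM. With a pseudocount of 0.1, Dll_0 was at -2.91 and Optix at -1.89. Dll_0 could not be fitted with at least 10 counts in every library. The count of other patterning genes past a threshold was 0 in each alternative, and also with Gl kept in the list, a choice made after seeing the data. With so few genes, a count of 0 is near the share of all tested genes, so nothing is read from it. Without irradiated replicate 1, 0 of the 10 had an unadjusted p under 0.05.

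Over all genes, the number at an adjusted p under 0.05 was less stable. DESeq2 gave 554 higher and 480 lower genes. With irradiated replicates 1 and 2 summed, edgeR gave 20 higher and 5 lower genes, and with the replicate block 54 and 35. Leaving out each library in turn gave 18 to 162 higher and 3 to 154 lower genes, the fewest without irradiated replicate 1. Same-numbered pools did not deviate together (correlations of deviations -0.01, -0.09 and -0.15), so the numbers were not taken to pair the samples. Of the 6 genes, Optix alone was called with the block, from which nothing is read since the contrast chose the genes. By the study's threshold the counts over all genes stayed within 515 to 764 higher and 388 to 624 lower. Dll_0 rests on 8 irradiated counts.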
